A study of Mus musculus with 2 samples.

Results

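The genes described here are the GDNF-RET signalling axis and genes it is known for in ureteric bud tips. They are the ligand Gdnf, the receptor genes Ret and Gfra1, and Etv4, Etv5, Spry1, Dusp6, Sox8 and Slco4c1, taken as every probe on the arrays that carries 1 of these 9 gene names. There were 10 such probes, and 8 of the 9 genes were bright enough to be tested among 21977 genes. RNA came from ureters, the tubes between kidney and bladder, dissected from NMRI mouse embryos at stage E14.5. Embryos labelled Bmp4cKO had the genotype Tbx18(cre/+);Bmp4(fl/fl), in which cre is driven from the Tbx18 locus, which is active in ureteric mesenchyme, so that the controls differ in Tbx18 as well. Embryos labelled control were Tbx18(+/+);Bmp4(fl/?), with at least 1 floxed Bmp4 allele, a second Bmp4 allele that the labels leave undefined, and no cre. Each of 2 two-colour arrays held 1 RNA of each label, with the dyes exchanged between arrays. Replicate 1 was labelled female and replicate 2 male. The sources used here do not say if an RNA came from 1 embryo or several, so p-values measure the spread between these arrays only.

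GDNF is a growth factor that mesenchyme secretes around the ureteric bud, the epithelial outgrowth that forms the ureter and collecting ducts. It binds the co-receptor GFRA1 on bud tip cells, which brings in the receptor tyrosine kinase RET. RET signalling through the ERK pathway induces the ETS transcription factor genes Etv4 and Etv5 and the feedback inhibitor genes Spry1 and Dusp6, and bud tips branch in response. BMP4 from the mesenchyme around the duct is known to oppose bud outgrowth. In the normal ureter, below the kidney, Ret falls silent as the epithelium becomes urothelium.

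Bmp4, the targeted gene, went against the labels. Its processed signal, a brightness in arbitrary units, was 29491 and 27393 in the RNAs labelled Bmp4cKO, against 3613 and 1973 in the RNAs labelled control (replicates 1 and 2). The log2 ratio, with the RNA labelled Bmp4cKO on top and that labelled control below, was 3.04 and 3.71 on the 2 arrays and averaged 3.38 ± 0.48 (SD, n = 2; limma adjusted p = 0.016). In the authors' deposited table the same probe has the opposite sign, at signed folds of -8.16 and -13.9. Directions below are those of the dye labels, and each turns if the labels are exchanged, so a gene lower in the RNAs labelled Bmp4cKO ran opposite to Bmp4. The probe is in mouse build mm9 at chr14:47003391-47003450 on the minus strand, and the sources used here do not say if that stretch lies in the floxed part. A second Bmp4 probe was not well above background in any of the 4 RNAs. Tbx18 was also higher in the RNAs labelled Bmp4cKO, with a mean log2 ratio of 0.97 ± 0.17 (SD, n = 2 arrays; limma adjusted p = 0.039). On replicate 2, labelled male, the sex-linked probes did not match: Xist was at 2120 in the RNA labelled Bmp4cKO and Ddx3y at 6.25, not well above background, against 85.2 for Xist and 2720 for Ddx3y in the RNA labelled control.

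The ligand and the receptor kinase gene were lower in the RNAs labelled Bmp4cKO, while the ERK target genes were not called in either direction. Of the 8 tested members, Gdnf and Ret passed the test and both fell, opposite to Bmp4, by 4.44-fold and 2.29-fold. Over all 21977 genes 1.03% were called lower and 0.892% higher (limma, Benjamini-Hochberg adjusted p under 0.05). Both calls were lost with median centring in place of loess (adjusted p = 0.296 for each) and with no normalization (adjusted p = 1.00 for each), where the folds were nearly the same. Both were also at least 2-fold lower on each array, as were 0.619% of all genes. The other 6 tested members had mean log2 ratios between -0.52 and 0.33.

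The arrays read these genes with 60-base probes. For the members on which the result turns, the first 30 bases of each probe are shown 5′ to 3′, in lower case throughout, together with those of the Bmp4 probe that gives the direction.
Gdnf: ctgatgtctcggtcgtttgtgttatacaac
Ret: ccataccgtgttgacttgtttttgtaatca
Gfra1: ccacaacttagaacagtttggattcaaggt
Bmp4: caaccacctacacataccacacaaactgct
In mm9 the Gdnf probe is at chr15:7787474-7787533 on the plus strand. The Ret probe is at chr6:118101791-118101850 and the Gfra1 probe at chr19:58311604-58311663, both on the minus strand.

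**Figure D1:**
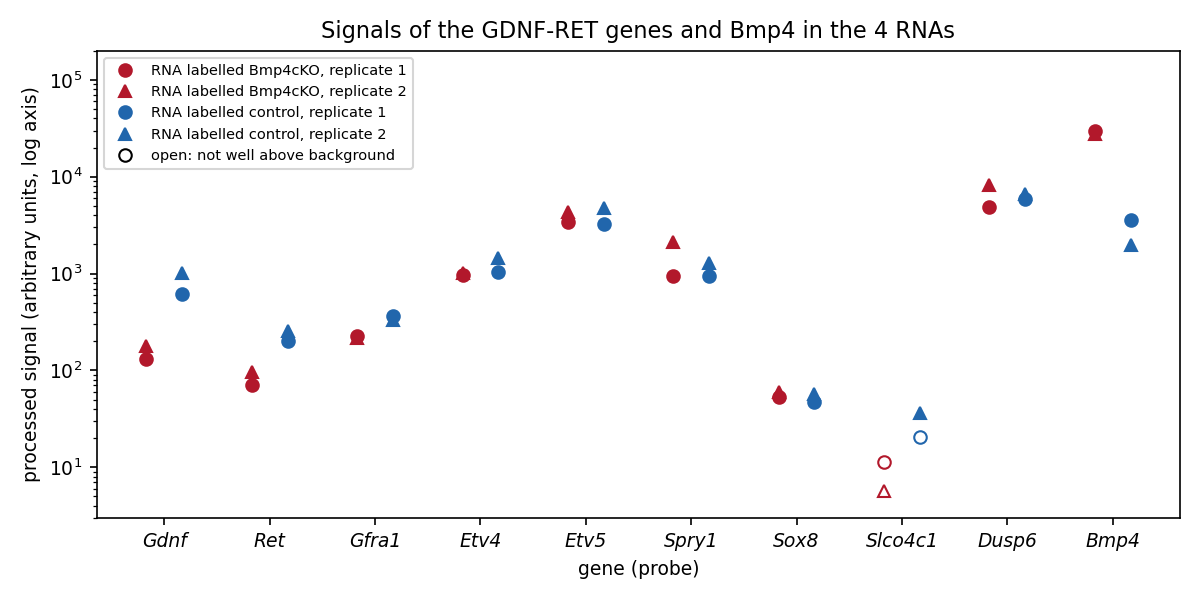
Processed signal (arbitrary units, log axis) of each gene's probe in the 4 RNAs, those labelled Bmp4cKO in red and those labelled control in blue, with circles for replicate 1 and triangles for replicate 2. Gdnf and Ret sit lower in both RNAs labelled Bmp4cKO than in both labelled control, Bmp4 sits higher, and 3 of the 4 Slco4c1 points are open, which marks a spot not well above background.

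Gdnf, the ligand, had processed signals of 131 and 179 in the RNAs labelled Bmp4cKO, against 618 and 1005 in the RNAs labelled control. The control-labelled RNA was brighter on each array. The mean log2 ratio was -2.15 ± 0.17 (SD, n = 2 arrays; -2.03 and -2.27; limma adjusted p = 0.016), with a 95% interval of -2.48 to -1.82. From the lowest mean upwards, Gdnf stood at position 10 of 21977 genes. In these whole-tissue RNAs, fewer cells that express a gene and less RNA per cell cannot be told apart.

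RefSeq gives Gdnf a pair of start sites, and the window from 250 bases before to 50 bases after each is shown because Gdnf moved furthest of the members. Both are 5′ to 3′ on the plus strand of build GRCm38.p6, at chr15:7809798-7810097 and chr15:7813477-7813776. The Gfra1 window, at chr19:58455349-58455648 on the minus strand, follows them, and its capitals mark the letters CCGGAA, a core that ETS factors such as ETV4 and ETV5 can bind.
Gdnf, upstream start: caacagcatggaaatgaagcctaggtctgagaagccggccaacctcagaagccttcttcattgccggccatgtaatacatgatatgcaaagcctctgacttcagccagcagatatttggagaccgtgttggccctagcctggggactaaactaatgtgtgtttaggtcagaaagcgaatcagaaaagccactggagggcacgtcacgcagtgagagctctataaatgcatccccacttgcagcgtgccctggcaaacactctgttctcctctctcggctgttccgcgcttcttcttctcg
Gdnf, downstream start: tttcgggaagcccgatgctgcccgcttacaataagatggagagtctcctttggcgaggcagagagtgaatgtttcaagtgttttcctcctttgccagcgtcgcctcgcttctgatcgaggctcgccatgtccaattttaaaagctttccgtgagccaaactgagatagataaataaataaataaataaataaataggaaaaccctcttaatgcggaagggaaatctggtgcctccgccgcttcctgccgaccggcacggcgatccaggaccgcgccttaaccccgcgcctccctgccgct
Gfra1: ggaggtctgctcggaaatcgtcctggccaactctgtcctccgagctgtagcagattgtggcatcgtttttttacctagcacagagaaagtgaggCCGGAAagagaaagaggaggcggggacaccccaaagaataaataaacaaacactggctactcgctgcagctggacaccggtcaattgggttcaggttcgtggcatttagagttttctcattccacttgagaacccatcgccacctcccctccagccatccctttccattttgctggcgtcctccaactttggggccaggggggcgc
Of the 9 members, 7 had windows in the table, 9 windows in all, and Ret and Etv4 had none. Searched on both strands, CCGGAA was found in 1 of the 9 windows, that of Gfra1 at -156 from the start, and in 14.9% of all 32851 windows of this length. GGCGCC, a core that BMP-activated SMAD proteins can bind, was found in 2 of the 9, for Etv5 and Sox8, and in 11.9% of all windows. The motifs do not overlap each other in any of these windows. A match is a description of the letters only.

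Ret, the receptor tyrosine kinase gene, had processed signals of 70.1 and 95.4 in the RNAs labelled Bmp4cKO, against 203 and 253 in the RNAs labelled control. It was dim but well above background in all 4 RNAs. The mean log2 ratio was -1.20 ± 0.05 (SD, n = 2 arrays; -1.23 and -1.16; limma adjusted p = 0.024), with a 95% interval of -1.49 to -0.90. For dim probes the constant of 50 added to both channels pulls ratios towards 0, and the mean for Ret was -1.36 with a constant of 0 and -1.47 from the processed signals.

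Gfra1, the co-receptor gene that lends RET its affinity for GDNF, had processed signals of 226 and 217 in the RNAs labelled Bmp4cKO, against 361 and 331 in the RNAs labelled control. The arrays gave nearly equal log2 ratios of -0.52 and -0.53. The mean of -0.52 ± 0.01 (SD, n = 2 arrays) had a 95% interval of -0.82 to -0.23 and did not pass over all genes (limma adjusted p = 0.119, unadjusted p = 0.0061). Ret was lower relative to Gfra1 on both arrays, by a log2 difference of -0.71 and -0.63, which was not tested.

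**Figure D2:**
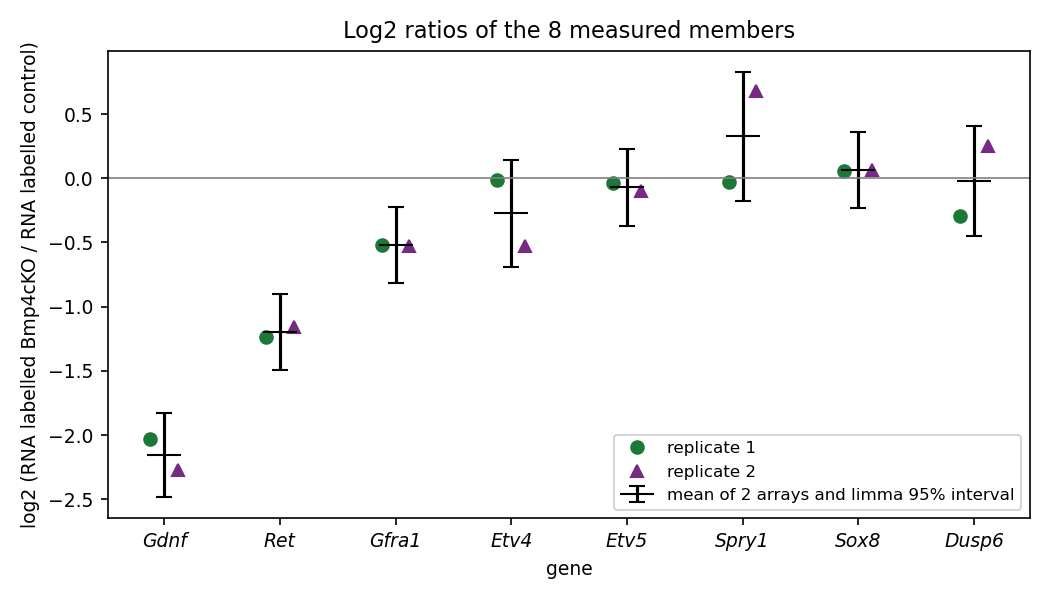
Log2 ratio of RNA labelled Bmp4cKO to RNA labelled control for the 8 tested members (vertical axis), with a circle for replicate 1, a triangle for replicate 2, and a bar for the mean with limma's 95% interval. Gdnf at -2.15, Ret at -1.20 and Gfra1 at -0.52 have intervals below 0, and the intervals of the other 5 include 0.

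Etv4 and Etv5 encode the ETS transcription factors that act downstream of RET in bud tips. Etv4 had processed signals of 970 and 1011 in the RNAs labelled Bmp4cKO, against 1044 and 1443 in the RNAs labelled control. Its log2 ratios were -0.02 and -0.53, so the lower average, -0.27 ± 0.36 (SD, n = 2 arrays; limma adjusted p = 0.563), came almost wholly from replicate 2. A dimmer Etv4 probe gave -0.11 and -0.36. The brighter probe is in mm9 at chr11:101631057-101631116 and the dimmer at chr11:101631322-101631381, both on the minus strand.

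Etv5 showed hardly any difference on either array. Its processed signals were 3378 and 4306 in the RNAs labelled Bmp4cKO, against 3265 and 4762 in the RNAs labelled control. The groups overlapped. The mean log2 ratio was -0.07 ± 0.04 (SD, n = 2 arrays; limma adjusted p = 0.885), with a 95% interval of -0.37 to 0.23, which does not reach the size of the change in Ret. The Etv5 probe is at chr16:22381387-22381446 on the minus strand in mm9.

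Spry1 and Dusp6 encode inhibitors that ERK signalling switches on and that damp it in turn, the first upstream in the pathway and the second as an ERK phosphatase. Spry1 had processed signals of 952 and 2110 in the RNAs labelled Bmp4cKO, against 953 and 1284 in the RNAs labelled control. Only the RNA labelled Bmp4cKO of replicate 2 stood apart. The log2 ratios were -0.03 and 0.68, averaging 0.33 ± 0.50 (SD, n = 2 arrays; limma adjusted p = 0.567), and the 95% interval ran from -0.18 to 0.83. Dusp6 had processed signals of 4904 and 8141 in the RNAs labelled Bmp4cKO, against 5950 and 6587 in the RNAs labelled control. Its log2 ratios were -0.29 and 0.25, opposite on the 2 arrays, averaging -0.02 ± 0.38 (SD, n = 2 arrays; limma adjusted p = 0.982) and a 95% interval of -0.45 to 0.40. Both genes were higher in the red than in the green channel on both arrays, whichever label that dye carried. In log2 red over green, Spry1 was at 0.03 and 0.68 and Dusp6 at 0.29 and 0.25. The part of the dye in these values was not tested. In mm9 the Spry1 probe is at chr3:37543403-37543462 and the Dusp6 probe at chr10:98729985-98730044, both on the plus strand.

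Sox8 and Slco4c1 are the remaining bud tip genes, a SoxE transcription factor gene and a gene for an organic anion transporter. Sox8 had processed signals of 53.7 and 60.2 in the RNAs labelled Bmp4cKO, against 47.1 and 57.6 in the RNAs labelled control, dim in all 4 and overlapping. Its mean log2 ratio was 0.06 ± 0.0035 (SD, n = 2 arrays; limma adjusted p = 0.900), with a 95% interval of -0.23 to 0.36. Slco4c1 was not tested. Its signal was 11.4 and 5.71 in the RNAs labelled Bmp4cKO, neither well above background, and 20.3 and 36.4 in the RNAs labelled control, of which only the last was. In mm9 the Sox8 probe is at chr17:25703094-25703153 and the Slco4c1 probe spans chr1:98715632-98717766, a stretch of 2135 bases for a 60-base probe, both on the minus strand.

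The members therefore did not move as 1 block. Of the 8 tested, 5 were below 0 on both arrays (Gdnf, Ret, Gfra1, Etv4 and Etv5), 1 was above 0 on both (Sox8), and Spry1 and Dusp6 changed sign. Etv4 and Etv5 were barely below 0 on replicate 1, at -0.02 and -0.04. With the processed signals, with the authors' table turned to the dye labels or with median centring, 4 were below 0 on both arrays. Over all genes 30.6% were below 0 on both arrays and 28.2% above. The members' median log2 ratio was -0.17, or -0.17 and -0.32 on the 2 arrays, against -0.01 for all genes. Within each array Ret had a lower ratio than each of the 4 ERK target genes. On the log2 scale Ret minus Etv4 was -1.22 and -0.63, Ret minus Etv5 -1.19 and -1.06, Ret minus Dusp6 -0.94 and -1.41, and Ret minus Spry1 -1.20 and -1.84. Gfra1 did not stand apart in this way: on replicate 2 it was at -0.53, as was Etv4. Such differences compare ratios and not levels, and they were not tested.

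**Figure D3:**
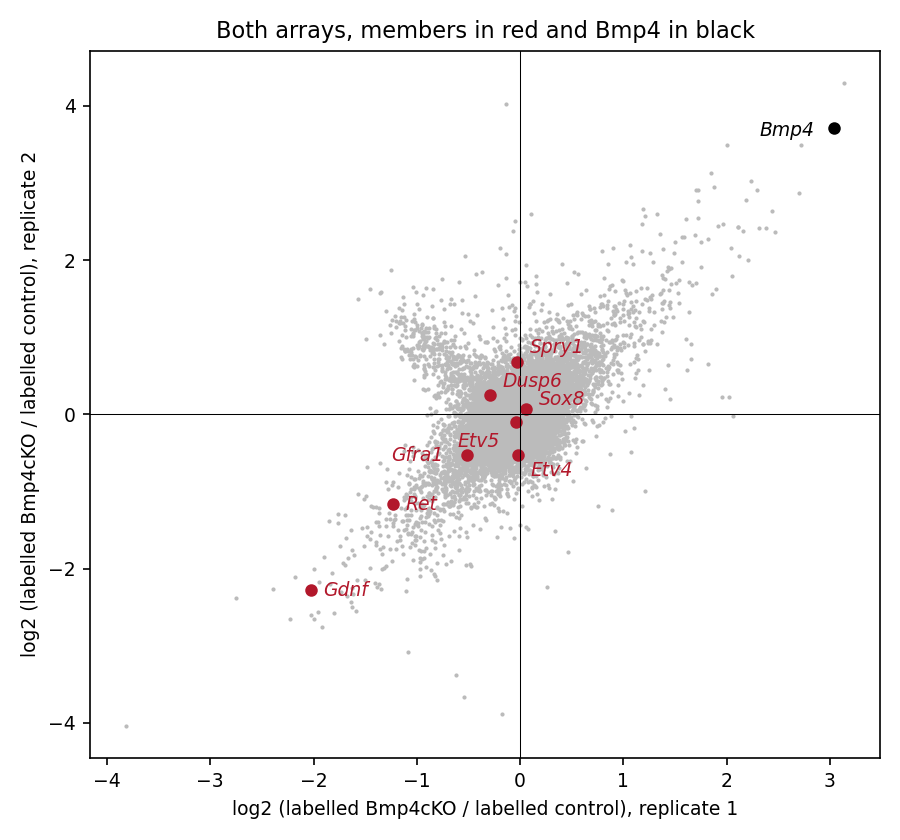
Log2 ratio of RNA labelled Bmp4cKO to RNA labelled control on replicate 1 (horizontal) against replicate 2 (vertical) for 21977 genes in grey, the 8 tested members in red and Bmp4 in black. Gdnf and Ret lie in the lower left, at the opposite end from Bmp4, while Etv5, Sox8, Dusp6, Spry1 and Etv4 lie in or near the central mass.

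The genes with ratios most like Gdnf, by Euclidean distance between pairs of log2 ratios over the 2 arrays, were Alkal2 at a distance of 0.14, Inhba at 0.20, Osr2 at 0.22, Ramp1 at 0.28 and C1qtnf7 at 0.29. Each was called lower, which follows largely from their being picked for ratios close to those of a called gene. For Ret they were Bmp2 at 0.05, Slc9a2 at 0.12 and Arhgef38 at 0.13, with a pair of array identifiers that have no name in the table used here. Bmp2, another bone morphogenetic protein ligand, had log2 ratios of -1.23 and -1.21, close to those of Ret at -1.23 and -1.16. For Slc9a2 the RNA labelled Bmp4cKO passed the background limit on 1 of the 2 arrays.

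Among other genes of the RET pathway none was called. They comprised 8 tested RET-family ligands and receptors, with a median log2 ratio of -0.23. Means ran from -0.54 for Artn, which encodes artemin, to 0.30 for Gdf15. Gdf15 was dim, with its highest processed signal, 45.2, in the RNA labelled Bmp4cKO of replicate 2. Its log2 ratios had opposite signs, at -0.12 and 0.71 on the 2 arrays, so that upper end rests on replicate 2. Of the list's 10 genes, 7 were well above background in all 4 RNAs. Pspn and Gfral were too dim to test. The 13 adaptor and signalling genes downstream of RET were centred on 0, with a median of 0.0039, and Dok5 was the furthest at 0.47 (0.21 and 0.73 on the 2 arrays; limma adjusted p = 0.290). Neither list had a member past the threshold in either direction, against 1.03% lower and 0.892% higher over all genes.

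Of 13 tested genes that maintain Gdnf or bud outgrowth, 2 were called lower and 0 higher, with a median log2 ratio of -0.14. Wt1, a transcription factor gene of kidney mesenchyme, had processed signals of 1723 and 1679 in the RNAs labelled Bmp4cKO, against 3915 and 5013 in the RNAs labelled control. Its mean log2 ratio was -1.34 ± 0.22 (SD, n = 2 arrays; limma adjusted p = 0.026). Hoxd11, of the Hox11 group needed for Gdnf in metanephric mesenchyme, was at -0.85 ± 0.01 (SD, n = 2 arrays; limma adjusted p = 0.042). Hoxa11 and Hoxc11, of the same group, were near 0 at 0.06 and -0.04, neither called. Eya1, which is required for Gdnf expression, was at -0.30 (-0.03 and -0.57) and Osr1 at 0.52, neither called. Grem1, a BMP antagonist that lets the bud grow, was not well above background in any RNA. None of 5 genes that restrict the Gdnf domain or Ret signalling was called. Their means ran from -0.66 for Robo2, the SLIT receptor gene, to -0.02 for Foxc2.

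Of 8 other bud tip genes tested, 0 were called, and the means ran from -0.65 for Myb to 0.41 for Cxcr4, with a median of -0.08. Wnt11, a WNT gene that bud tips express in response to GDNF, had processed signals of 2253 and 2036 in the RNAs labelled Bmp4cKO, against 2635 and 2857 in the RNAs labelled control. Its mean was -0.34 (-0.15 and -0.52; limma adjusted p = 0.392). Of 13 genes of the bud stalk and collecting duct, 2 were called lower and 2 higher. Wnt9b, a WNT gene of duct epithelium, fell by 1.97 ± 0.51 on the log2 scale (SD, n = 2 arrays; limma adjusted p = 0.026), and Lhx1, a LIM homeobox gene of the nephric duct, fell by 1.06 ± 0.17 (adjusted p = 0.035). Aqp3, a water channel gene, was higher at 1.79 ± 0.42 (adjusted p = 0.024). As for every list here, these counts stand beside 1.03% of all genes called lower and 0.892% called higher.

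Genes through which other signals reach ERK were mixed. None of 14 further ERK feedback and target genes was called, with a median of 0.18 and the furthest, Dusp5, at 0.64 (-0.06 and 1.34 on the 2 arrays). Of 9 tested FGF and HGF pathway genes, Fgfr3 at 1.68 ± 0.30 and Fgf7 at 1.67 ± 0.01 were called higher and Fgf9 at -1.31 ± 0.27 lower (SD, n = 2 arrays; limma adjusted p = 0.023, 0.018 and 0.029). Fgf7 and Fgf9 encode growth factors, and Fgfr3 a receptor tyrosine kinase that also signals through ERK.

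**Figure D4:**
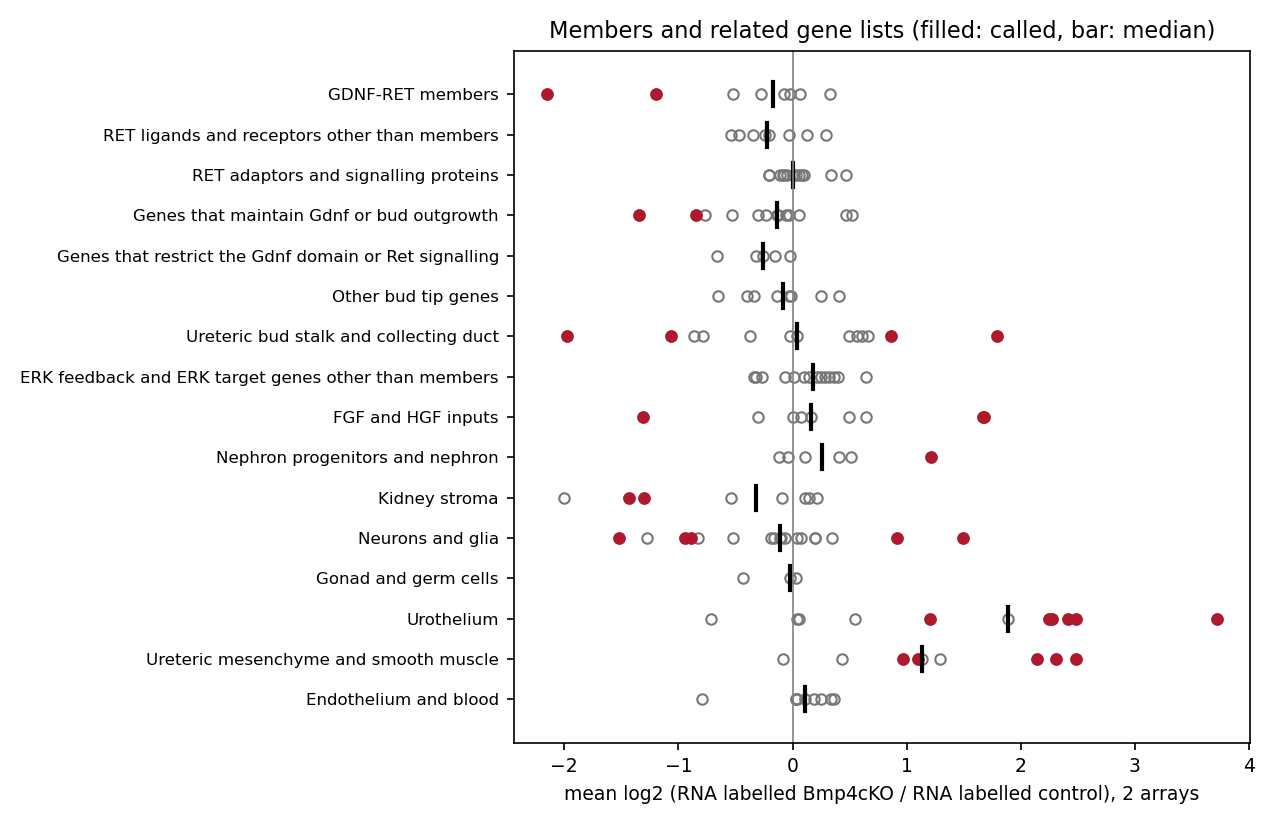
Mean log2 ratio of RNA labelled Bmp4cKO to RNA labelled control (horizontal axis, 2 arrays) for each tested gene of the members and of 15 related lists (rows). Filled red circles are called genes, open circles are not, and a black bar is the list's median, which is -0.17 for the members and 1.89 for urothelium.

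Ureter markers were present in all 4 RNAs: all 11 urothelial genes and all 9 genes of ureteric mesenchyme and smooth muscle were well above background in each. Those called moved in the direction of Bmp4. In urothelium 6 were called higher and 0 lower, beside 0.892% and 1.03% over all genes, with a summed processed signal of 36384 and 47114 in the RNAs labelled Bmp4cKO, against 16446 and 16759 in the RNAs labelled control. Upk1b, a uroplakin gene, was the furthest, at 3.72 ± 0.82 (SD, n = 2 arrays; limma adjusted p = 0.019), ahead of the uroplakin genes Upk3a at 2.48 and Upk2 at 2.41 (adjusted p = 0.018 and 0.030). Of the 11 urothelial genes 8 were above 0 on both arrays. Shh alone was below 0 on both, at -0.60 and -0.83 (limma adjusted p = 0.071). In mesenchyme and smooth muscle 5 were called higher and 0 lower, with summed signals of 59402 and 78459 in the RNAs labelled Bmp4cKO, against 35708 and 35580 in the RNAs labelled control. The contractile genes Myh11, Actg2 and Cnn1 were at 2.48, 2.31 and 2.14 (limma adjusted p = 0.036, 0.037 and 0.026). The part of these shifts in the values of Gdnf and Ret was not tested.

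Markers of kidney cells, some of which express Gdnf, differed among themselves. Of 6 tested nephron progenitor and nephron genes, Crym was called higher at 1.22 ± 0.22 (SD, n = 2 arrays; limma adjusted p = 0.030) and 0 were lower. The progenitor gene Six2 had log2 ratios of 1.21 and -0.99, and Cited1 of 0.65 and 0.37. Wt1 and Hoxd11, described above and also genes of kidney mesenchyme, were below 0 on both arrays, at -1.18 and -1.50 and at -0.85 and -0.84. Of the 13 tested genes of the list that holds them, 7 were below 0 on both arrays and 3 above. Those above were Osr1 at 0.46 and 0.59, Itga8 at 0.48 and 0.46, and Hoxa11 at 0.08 and 0.03. The summed signal of the nephron progenitor and nephron list was 11435 and 12392 in the RNAs labelled Bmp4cKO, against 5763 and 7725 in the RNAs labelled control. Without Crym, the brightest, it was 4539 and 5422 in the RNAs labelled Bmp4cKO, against 3104 and 4496 in the RNAs labelled control. Much of the difference therefore came from Crym. Nphs1, Slc12a1 and Umod were not well above background in any RNA. Of 8 kidney stroma genes, Smoc2 at -1.43 ± 0.40 and Alx1 at -1.30 ± 0.35 were called lower (SD, n = 2 arrays; limma adjusted p = 0.035 and 0.036) and 0 higher. Foxd1, the defining gene of that stroma, was at -0.10, and Ren1, the renin gene, had the lowest mean without being called, at -0.62 and -3.38 on the 2 arrays (limma adjusted p = 0.242). Summed stroma signals were 109089 and 98837 in the RNAs labelled Bmp4cKO, against 99298 and 143034 in the RNAs labelled control, which overlapped. Without Tcf21, the brightest, they were 65923 and 66441 in the RNAs labelled Bmp4cKO, against 71944 and 106722 in the RNAs labelled control, and did not. Smoc2, still in those sums, was alone at 10491 and 12515 in the RNAs labelled Bmp4cKO, against 25527 and 39069 in the RNAs labelled control. The lack of overlap therefore need not hold for the list as a whole. The part of these cells in the results was not tested.

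Ret, Gfra1 and Sox8 are also expressed in nerve cells or glia. Of 18 neuronal and glial genes, 3 were called lower, among them the neuronal tubulin gene Tubb3 at -1.52 ± 0.28, and 2 higher, among them the endothelin receptor gene Ednrb at 1.49 ± 0.07 (SD, n = 2 arrays; limma adjusted p = 0.023 and 0.019). Sox10, a glial transcription factor gene, was at -0.07, and no gene of the list was below background in all RNAs. Summed signals were 17762 and 17639 in the RNAs labelled Bmp4cKO, against 15901 and 16148 in the RNAs labelled control. Without Ednrb, the brightest gene of the list, the order turned, with 11112 and 12294 in the RNAs labelled Bmp4cKO, against 13664 and 14221 in the RNAs labelled control. The part of nerve cells in the value of Ret was not tested. Of 7 gonad and germ cell genes 3 were tested and 0 called, with Nr5a1 the furthest at -0.43, and Dazl, Pou5f1 and Amh were not well above background in any RNA. None of 9 endothelial and blood genes was called, and Ptprc, at -0.80, narrowly missed the threshold (limma adjusted p = 0.0502). The haemoglobin genes Hba-a1, at -1.36 and 1.58, and Hbb-bt, at -0.77 and 1.49, went opposite ways on the 2 arrays. The part of blood in the results was not tested.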

How the data were processed

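RNA of 2 arrays was compared, each array with 1 RNA per genotype label. Per the file headers, the authors scanned both arrays on 1 slide and read the spots in Agilent Feature Extraction 10.7.3.1. Probe coordinates refer to mm9. Deposited mean spot and median background values are raw linear intensities. For its deposited processed signal, also an intensity, the scanner software subtracted background, detrended and normalized the dyes, without scaling 1 array to the other. LogRatio, as deposited, gives the log10 red-to-green ratio of those signals. The authors' deposited value table holds a score per probe that proved to be a signed fold change. On probes above background in all channels it came within 0.01 (log2) of the scanner ratio in size for 99.7% and 99.6% of probes. It follows red over green on replicate 1 and green over red on replicate 2, both medians are 1, and no source says which RNA is on top.

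Each array had 44397 spots, 1377 of them controls, no probe spot was saturated, and 231 and 235 outlier spots were left out. The share of probe spots well above background ran from 69.3% to 74.6% over the 4 channels. The number of arrays, 2, limits the precision. Mean spot and median background signals were corrected with normexp (offset 50) and loess-normalized within arrays, controls at weight 0, in limma 3.58.1 (R 4.3.3). A probe was kept if well above background in both RNAs labelled Bmp4cKO or both labelled control, and the brightest kept probe stood for its gene. Of 39429 probes, 31003 were named through a RefSeq table of GRCm38.p6, which was also the source of promoter sequences. Ratios were turned by the dye labels, with the RNA labelled Bmp4cKO on top, and fitted with lmFit and eBayes across all genes. Adjustment was by Benjamini-Hochberg. There were 1 residual and 4.04 prior degrees of freedom, so the prior carried most of each test. The fit was tested on simulated data.

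Members, lists and tests were chosen with earlier results of these data known. Named genes are the members, Bmp4, Tbx18, up to 3 called genes per list (or the furthest one), and the 5 genes nearest to Gdnf and to Ret. A few genes of the lists are not reported here. Further genes with a known role in the pathway or a cell type were named after their values were seen. They are Gdf15, Eya1, Osr1, Itga8, Hoxa11, Hoxc11, Foxc2, Cxcr4, Wnt11, Shh, Six2, Cited1, Foxd1, Ren1, Sox10, Hba-a1 and Hbb-bt, and in the closing section Egr1, Ier3, Spry2, Il17rd and Etv1. The alternatives tried were other background corrections, normalizations, filters, probe rules, priors, separate-channel fits, the authors' table (turned to the dye labels' direction) and single arrays.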

Additional observations from a re-analysis of the deposited data

Results flagged for a closer look

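Spry1 and Dusp6 had log2 ratios of opposite sign on the 2 arrays. Those arrays differ in sex label and have their dyes exchanged. Replicate 2 minus replicate 1 was 0.71 for Spry1 and 0.54 for Dusp6. With 1 array per sex label the difference was not tested, and sex label and dye orientation cannot be told apart. On replicate 1 Spry1 was near 0, at -0.03. Over all genes 30.6% were below 0 on both arrays and 28.2% above, so many other genes changed sign too. Within replicate 2 the sex-linked probes also differed between the RNAs. Xist was at 2120 in the RNA labelled Bmp4cKO and 85.2 in that labelled control, and Ddx3y at 6.25 and 2720. On that array the sex-linked pattern and the genotype label cannot be told apart for any gene. Slco4c1, left out of the test, was well above background in 1 of the 4 RNAs, the one labelled control on replicate 2, with a processed signal of 36.4.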

How the results depend on the processing

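Gdnf and Ret were called lower in 13 of 15 alternative settings each, and Bmp4 higher in 13 of 15. Among these settings, the authors' value table was first turned to the direction of the dye labels by the scanner ratios, so it bears on sizes and not on direction. As deposited, that table has the opposite sign for all 3 genes. Over the 15 settings Gdnf ranged from -2.37 to -2.14 and Ret from -1.47 to -1.18. Gfra1 ranged from -0.64 to -0.52 and passed in 0 of 15 (lowest limma adjusted p = 0.0757), and Etv4, Etv5, Spry1, Sox8 and Dusp6 also passed in 0. The exceptions were median centring in place of loess and no normalization, where 0 members were called. There Bmp4 was at 3.38 and 3.36 (adjusted p = 0.296 and 0.285), Gdnf at -2.15 and -2.17 and Ret at -1.21 and -1.23, so sizes hardly moved. With no normalization 2 members were on the same side of 0 on both arrays instead of 6. It was 5 members with median centring, with the processed signals and with the authors' table as turned. Median centring called 0 genes in limma (1759 at an unadjusted p under 0.05) and no normalization 1, against 423 as reported (196 higher and 227 lower). The count was 727 with plain background subtraction, 720 with scaling between arrays, 1286 with an intensity trend, 636 with the authors' value table and 909 with a normexp offset of 0, an alternative chosen after seeing the data. The causes were not tested. Dusp6, near 0, turned to 0.013 with the processed signals and with the authors' table as turned, 0.036 with median centring and 0.015 with no normalization. On single arrays, which leave no test, Bmp4 ran from 3.04 to 3.71, Dusp6 from -0.29 (without replicate 2) to 0.25 (without replicate 1) and Spry1 from -0.029 (without replicate 2) to 0.68 (without replicate 1). The ratio fit pairs the RNAs of an array. Separate-channel fits without that replicate block called 337 genes, or 377 with a dye term, and the same 2 members. Slco4c1 could be fitted only without the filter, at -0.65 (adjusted p = 0.209). Dim probes such as those of Ret and Sox8 limit the size of ratio that can be read.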

Other observations

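Further ERK-responsive genes, chosen here after their values were seen, went opposite ways on the 2 arrays as Spry1 and Dusp6 did, and others did not. Of the 14 further ERK feedback and target genes, 3 were below 0 on both arrays and 5 above. Over all genes 30.6% were below 0 on both arrays and 28.2% above, so a change of sign was not particular to ERK genes. Egr1, an immediate early transcription factor gene, had log2 ratios of -0.64 and 1.43, and Ier3, an early response gene, of -0.55 and 1.05. Dusp5, a nuclear ERK phosphatase gene, was at -0.06 and 1.34. Spry2 and Il17rd, inhibitors of the same pathway, were alike on both arrays, at -0.35 and -0.33 and at -0.30 and -0.23, and Etv1, a close relative of Etv4 and Etv5, was at 0.37 and 0.27. None of these was called.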
